A study of Mus musculus with 16 samples.

Results

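A set of 10 genes of glucose use was followed through macrophages of the mouse airway: the glucose carrier Slc2a1, the hexokinases Hk2 and Hk3, the phosphofructokinase Pfkp and its activator enzyme Pfkfb3, the enzymes Aldoa, Pgk1 and Ldha, the pyruvate dehydrogenase kinase Pdk4 and the transcription factor subunit Hif1a. They were taken by symbol from the table of read counts, which holds 23159 gene symbols, and all 10 were found and all 10 passed the filter on low counts that left 12455 genes. The RNA came from macrophages recovered by bronchoalveolar lavage, a wash of the airways. The 4 groups of 4 libraries each were TLR3-KO mice following pneumonia, TLR3-KO controls, wild-type (WT) mice following pneumonia and WT controls. The sample titles call the pneumonia groups injured, and that word is used here. TLR3-KO mice lack Toll-like receptor 3, an endosomal sensor of double-stranded RNA. Per the labels' protocols, pneumonia was given as 500 CFU of Klebsiella pneumoniae, strain 43816, in 30 µl through the hypopharynx under isoflurane. Saline was the other inoculum named there, and the controls carry the treatment label none. The time after infection, the construct of the TLR3 allele and the age of the mice are not stated in the labels. Nor do the labels tie a library to a mouse of its own. P-values therefore measure the spread between libraries.

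Total counts lay between 29667102 and 59640251 per library, and a member was backed by 476 to 98209 reads in a library. Tlr3 was counted at 0.27 to 0.72 CPM (counts per 1000000 counts of the library) in the TLR3-KO libraries and at 2.18 to 4.53 CPM in the WT libraries. Xist, the RNA of the inactive X chromosome, reached 42.3, 31.6 and 20.3 CPM in TLR3-KO controls 1, 2 and 3, while none of the 13 remaining libraries exceeded 0.23 CPM. The title of the series names male mice. Macrophage markers were high in all groups: Cd68 ranged over 1153 to 1617 CPM and Marco over 580 to 1259 CPM across the 16 libraries. Controls 1 and 2 of both genotypes stood apart from controls 3 and 4, as several members below also show.

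Glycolysis splits glucose into pyruvate in the cytosol. Glucose enters through carriers such as Slc2a1, is trapped by a hexokinase, and passes the phosphofructokinase step, which is the main point of control and is driven by the sugar phosphate that the Pfkfb enzymes make. Pyruvate is then reduced to lactate by lactate dehydrogenase or burned in mitochondria, and the Pdk kinases hold it back from the mitochondria by inactivating pyruvate dehydrogenase. HIF-1, whose alpha subunit Hif1a encodes, is known for raising most of these genes in hypoxia and in inflammatory macrophages, whereas alveolar macrophages are known for relying largely on fatty acid oxidation.

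The promoters of the members hold the core letters of the HIF binding site to differing extents. The 250 bases before each RefSeq start (GRCm38.p6) were searched for ACGTG or GCGTG on both strands, and overlapping places were joined. Of 32851 such windows in the genome, not matched to the members by base composition, 38.6% held at least 1 place and 4.65% held at least 3. Of the 14 starts of the 10 members, 13 held at least 1 place, and each member had it at 1 start or more. The first start of Aldoa held none, and the windows of its starts 2 and 3 overlap and hold the same place. Shown here are Ldha and Pfkp, each with 3 places, Pgk1 with 2, Hif1a itself with 2, and Pdk4, the member that passed the test below, with 1. Capitals mark the places, read on the strand of the gene, where CACGT and CACGC are the same letters on the other strand. A match describes these windows and is not a binding site.
Pfkp, chr13:6648772-6649021, minus strand: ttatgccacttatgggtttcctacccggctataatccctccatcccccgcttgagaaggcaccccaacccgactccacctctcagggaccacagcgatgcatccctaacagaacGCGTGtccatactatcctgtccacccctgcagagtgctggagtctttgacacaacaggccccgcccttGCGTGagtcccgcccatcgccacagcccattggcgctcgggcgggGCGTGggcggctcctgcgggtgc
Pgk1, chrX:106186850-106187099, plus strand: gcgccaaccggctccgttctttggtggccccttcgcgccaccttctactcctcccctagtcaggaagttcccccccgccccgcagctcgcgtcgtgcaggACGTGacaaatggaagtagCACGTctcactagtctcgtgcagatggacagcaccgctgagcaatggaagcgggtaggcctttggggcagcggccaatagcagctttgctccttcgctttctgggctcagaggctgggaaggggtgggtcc
Ldha, chr7:46845554-46845803, plus strand: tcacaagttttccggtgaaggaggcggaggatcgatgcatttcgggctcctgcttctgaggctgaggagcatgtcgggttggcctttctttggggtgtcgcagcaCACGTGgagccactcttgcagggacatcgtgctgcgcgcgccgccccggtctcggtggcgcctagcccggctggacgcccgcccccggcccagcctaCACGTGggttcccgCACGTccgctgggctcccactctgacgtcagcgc
Pdk4, chr6:5496279-5496528, minus strand: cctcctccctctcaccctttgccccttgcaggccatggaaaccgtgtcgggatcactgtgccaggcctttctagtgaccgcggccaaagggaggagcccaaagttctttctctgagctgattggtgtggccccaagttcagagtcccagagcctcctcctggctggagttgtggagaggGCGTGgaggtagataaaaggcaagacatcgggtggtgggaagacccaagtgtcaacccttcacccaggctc
Hif1a, chr12:73907617-73907866, plus strand: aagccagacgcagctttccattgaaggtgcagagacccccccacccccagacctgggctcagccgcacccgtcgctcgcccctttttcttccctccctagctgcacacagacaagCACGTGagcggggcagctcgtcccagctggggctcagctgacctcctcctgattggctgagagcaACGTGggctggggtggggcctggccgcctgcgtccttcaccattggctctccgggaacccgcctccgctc

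Compared per kilobase of exon, which is the scale on which levels of different genes can be set side by side, Aldoa and Ldha stood far above the other members. Aldoa, the aldolase that cuts the sugar into smaller units, averaged 945.7 CPM per kilobase over the 16 libraries and Ldha averaged 664.5. Pfkp averaged 71.1, Pgk1, the first enzyme of the pathway that yields ATP, 64.8, and Hif1a 51.3 CPM per kilobase. Slc2a1 averaged 28.9, Hk3 16.8, Pdk4 7.39, Hk2 6.98 and Pfkfb3 5.11 CPM per kilobase. Neighbours in this order had overlapping ranges over the 16 libraries. The exceptions were Ldha and Pfkp, Slc2a1 and Hk3, and Hk3 and Pdk4, which did not overlap. Within each of the 4 groups, the lowest Aldoa value also lay above the highest Ldha value. Overlapping ranges do not compare 2 genes within a library, and the order of the other overlapping neighbours was not tested. Counts of Aldoa, Pgk1 and Ldha are uncertain to the extent that reads were split with their near-identical copies, of which RefSeq lists 4, 3 and 3. Of these copies 2 had a row in the table, and Aldoart1 held 34 reads over all libraries and Aldoart2 held 0.

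Within each family the members differed in how much of the family's RNA they made up. Hk3, a hexokinase of myeloid cells, was the main hexokinase at 60.4% of the CPM per kilobase of Hk1, Hk2 and Hk3, and Hk2, the inducible hexokinase, followed at 25.6%. In WT controls the share ranged over 41.5% to 69.6% for Hk3 and over 19.6% to 44.8% for Hk2, and in WT control 2 Hk2 stood above Hk3. Slc2a1 made up 99.1% of its sum with Slc2a3, Ldha 99.9% of its sum with Ldhb, and Aldoa 97.1% of its sum with Aldoc. Pfkp made up 69.8% of the phosphofructokinases, with Pfkl at 29.9%. Pfkfb3 was a minor form at 8.56%, beside Pfkfb4 at 88.9%. Hif1a made up 93.4% of the HIF alpha subunits, Epas1 made up 6.63%, and Hif3a had no count in any library.

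Among the pyruvate dehydrogenase kinases, the shares of Pdk4 and Pdk1 were not the same in the 4 groups, and shares were not tested. Pdk3 was the largest form in every group, with group means of 41.6% to 44.8% of the family. Pdk2 had group means of 16.8% to 22.0%. Pdk4 made up 13.1% ± 1.45 of the family's CPM per kilobase in TLR3-KO injured libraries and 20.1% ± 2.88 in TLR3-KO controls (SD, n = 4 each). In WT its share was 26.7% ± 5.88 in injured and 25.5% ± 3.31 in control libraries (SD, n = 4 each). Pdk1, a kinase of the same family and a known HIF target, made up 22.7% ± 1.13 in TLR3-KO injured and 14.9% ± 3.82 in TLR3-KO control libraries, and 14.9% ± 1.88 in WT injured and 12.5% ± 0.73 in WT control libraries (SD, n = 4 each). In TLR3-KO injured libraries the largest Pdk4 share, 14.7%, was thus below the smallest Pdk1 share, 21.5%, while in WT injured libraries the smallest Pdk4 share, 19.6%, was above the largest Pdk1 share, 17.1%.

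**Figure D1:**
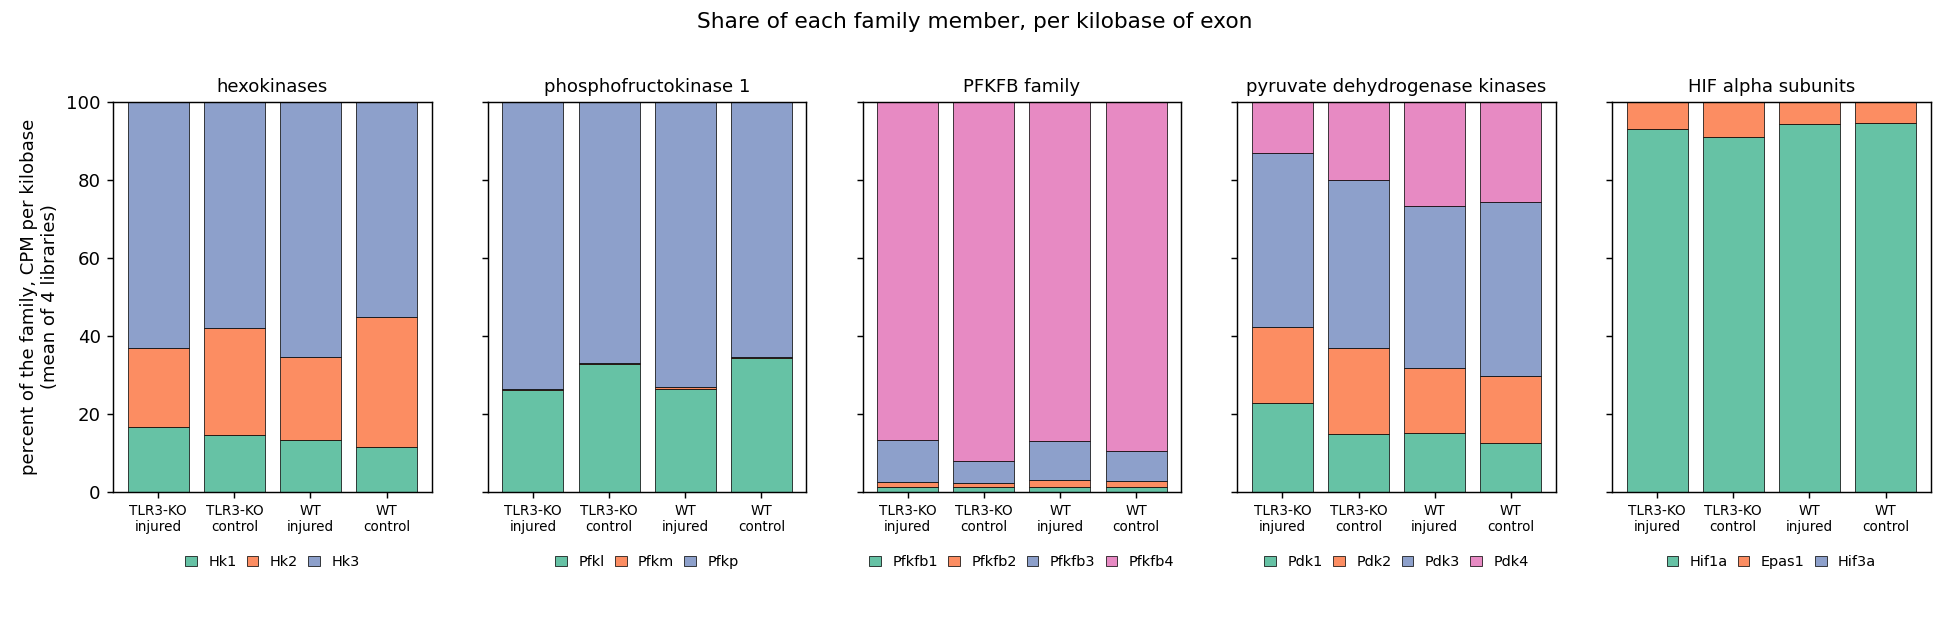
Stacked bars give the percent of each family's CPM per kilobase of exon held by each gene, as the mean of 4 libraries, with the 4 groups on the horizontal axis. Pdk4 made up 13.1% of the pyruvate dehydrogenase kinases in TLR3-KO injured libraries and 26.7% in WT injured libraries, and Pfkfb4 and Hif1a dominated their families in every group.

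Across the 5 comparisons, 1 member passed the test once. Differential expression was tested with edgeR's quasi-likelihood test over all 12455 genes, with Benjamini-Hochberg adjustment and a threshold of 0.05. Between TLR3-KO and WT after pneumonia 1 of 10 members was called, where 0.602% of all genes were. In the response to pneumonia, edgeR called 0 of 10 members in TLR3-KO, where 1.09% of all genes were called, and 0 of 10 in WT, where 0% were called. Between TLR3-KO and WT controls it called 0 of 10 members, with 0.658% of all genes called, and for the difference of the pneumonia responses 0 of 10, with 0% of all genes called. An unadjusted p under 0.05 was found for 6 of 10 members in TLR3-KO, where 23.9% of all genes had one, and for 2 of 10 in WT, where 10.7% had one. There was 1 such member between controls, against 19.8% of all genes, 1 between the injured genotypes, against 16%, and 2 for the difference of responses, against 17.7%. DESeq2 made more calls throughout. It called 3 of 10 members in TLR3-KO (Aldoa, Ldha and Pdk4, all lower in injured), where it called 8.28% of the genes it tested, and 1 of 10 between controls (Hif1a), where it called 6.66%. Between the injured genotypes it called Pdk4 and 3.57% of genes, and it called 0 members in WT, with 1.54% of genes, and for the difference, with 0.803%. Limma voom called Pdk4 between the injured genotypes, with 0.578% of genes called, and 0 members elsewhere, with 0.851% of genes called in TLR3-KO, 0.859% between controls and 0% in WT and for the difference.

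Overlap between groups was counted as well. In TLR3-KO, 5 of 10 members had injured and control libraries that did not overlap, where 14.3% of all genes did: Hk3, Pfkfb3 and Hif1a were higher and Aldoa and Ldha lower in injured libraries. In WT 0 of 10 members were free of overlap, where 4.51% of all genes were. Between TLR3-KO and WT, 0 of 10 members did not overlap in controls, against 8.13% of all genes, and 1 of 10, Pdk4, did not overlap after pneumonia, against 12.3% of all genes. The median log2 fold change of the 10 members was -0.04 in TLR3-KO and -0.22 in WT after pneumonia, beside -0.01 and 0.01 over all genes tested. It was -0.15 between TLR3-KO and WT controls and 0.01 between TLR3-KO and WT after pneumonia, beside 0.04 and -0.01 over all genes.

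**Figure D2:**
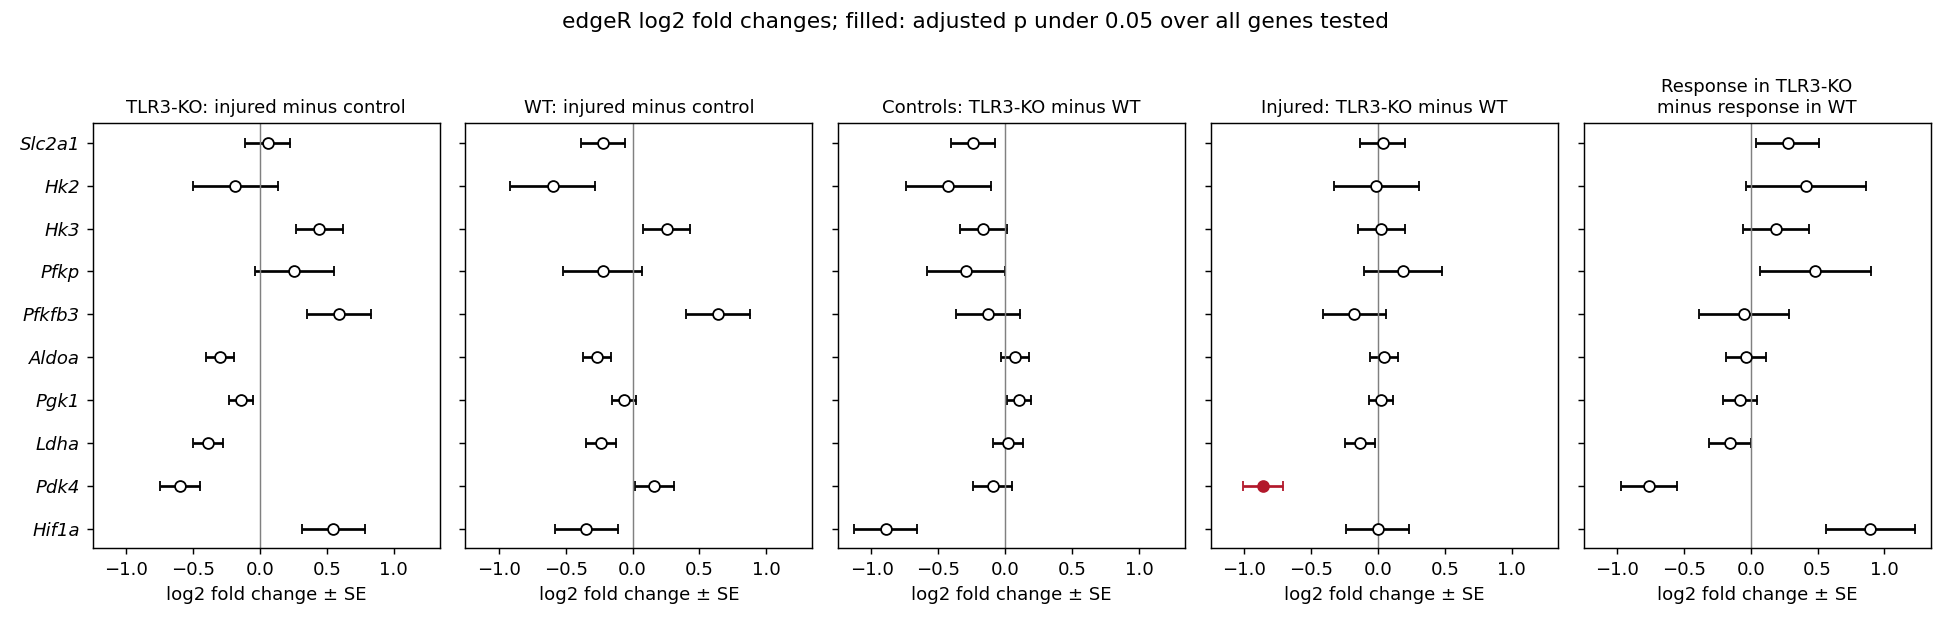
Each panel gives the log2 fold change of the 10 members in 1 comparison from edgeR, as a point with its SE, and filled red points have an adjusted p under 0.05 over all genes tested. Pdk4 between TLR3-KO and WT injured libraries, at -0.86, is the filled point.

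Pdk4 was lower in TLR3-KO than in WT macrophages after pneumonia. TLR3-KO injured libraries 1 to 4 had 17.0, 19.0, 16.04 and 20.2 CPM, and WT injured libraries 1 to 4 had 34.5, 32.1, 35.4 and 26.4 CPM. Every TLR3-KO injured library lay below every WT injured library. The group values were 18.1 ± 1.88 CPM in TLR3-KO injured and 32.1 ± 4.06 CPM in WT injured libraries (SD, n = 4 each), a log2 fold change of -0.86 (SE 0.15, edgeR adjusted p = 0.0189), or 1.81-fold lower in TLR3-KO. The direction held in 16 of 16 alternative settings and the call in 9 of them. Leaving out 1 library kept the call without WT injured 4 (adjusted p = 0.0115) and without TLR3-KO injured 4 (adjusted p = 0.0321). The call was lost without WT injured 1, 2 or 3 (adjusted p = 0.0518, 0.0564 and 0.0815) and without TLR3-KO injured 1, 2 or 3 (adjusted p = 0.0772, 0.0620 and 0.0959), with log2 fold changes of -0.93 to -0.81 throughout.

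In the other comparisons Pdk4 did not pass. TLR3-KO controls 1 to 4 were at 18.7, 28.9, 32.9 and 24.3 CPM, so TLR3-KO control 1 lay among the TLR3-KO injured libraries and the other 3 above them. WT controls 1 to 4 were at 23.5, 25.9, 23.9 and 33.0 CPM and overlapped with the WT injured libraries. The response to pneumonia was -0.60 in TLR3-KO (log2, SE 0.15, edgeR adjusted p = 0.0552) and 0.16 in WT (SE 0.15, adjusted p = 0.708), and the controls of the genotypes differed by -0.09 (SE 0.15, adjusted p = 0.743). The difference of the responses was -0.76 (SE 0.21, unadjusted p = 0.00233, adjusted p = 0.237), so a difference between genotypes in the response did not pass. Without TLR3-KO control 2 the response in TLR3-KO was called at -0.54 (adjusted p = 0.0466), and with controls 3 and 4 as the only controls, a setting chosen after seeing the data, at -0.68 (adjusted p = 0.0115). Pdk4 (ENSMUSG00000019577.6) lies on the minus strand of chromosome 6 from 5483351 to 5496309 in mm10.

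**Figure D3:**
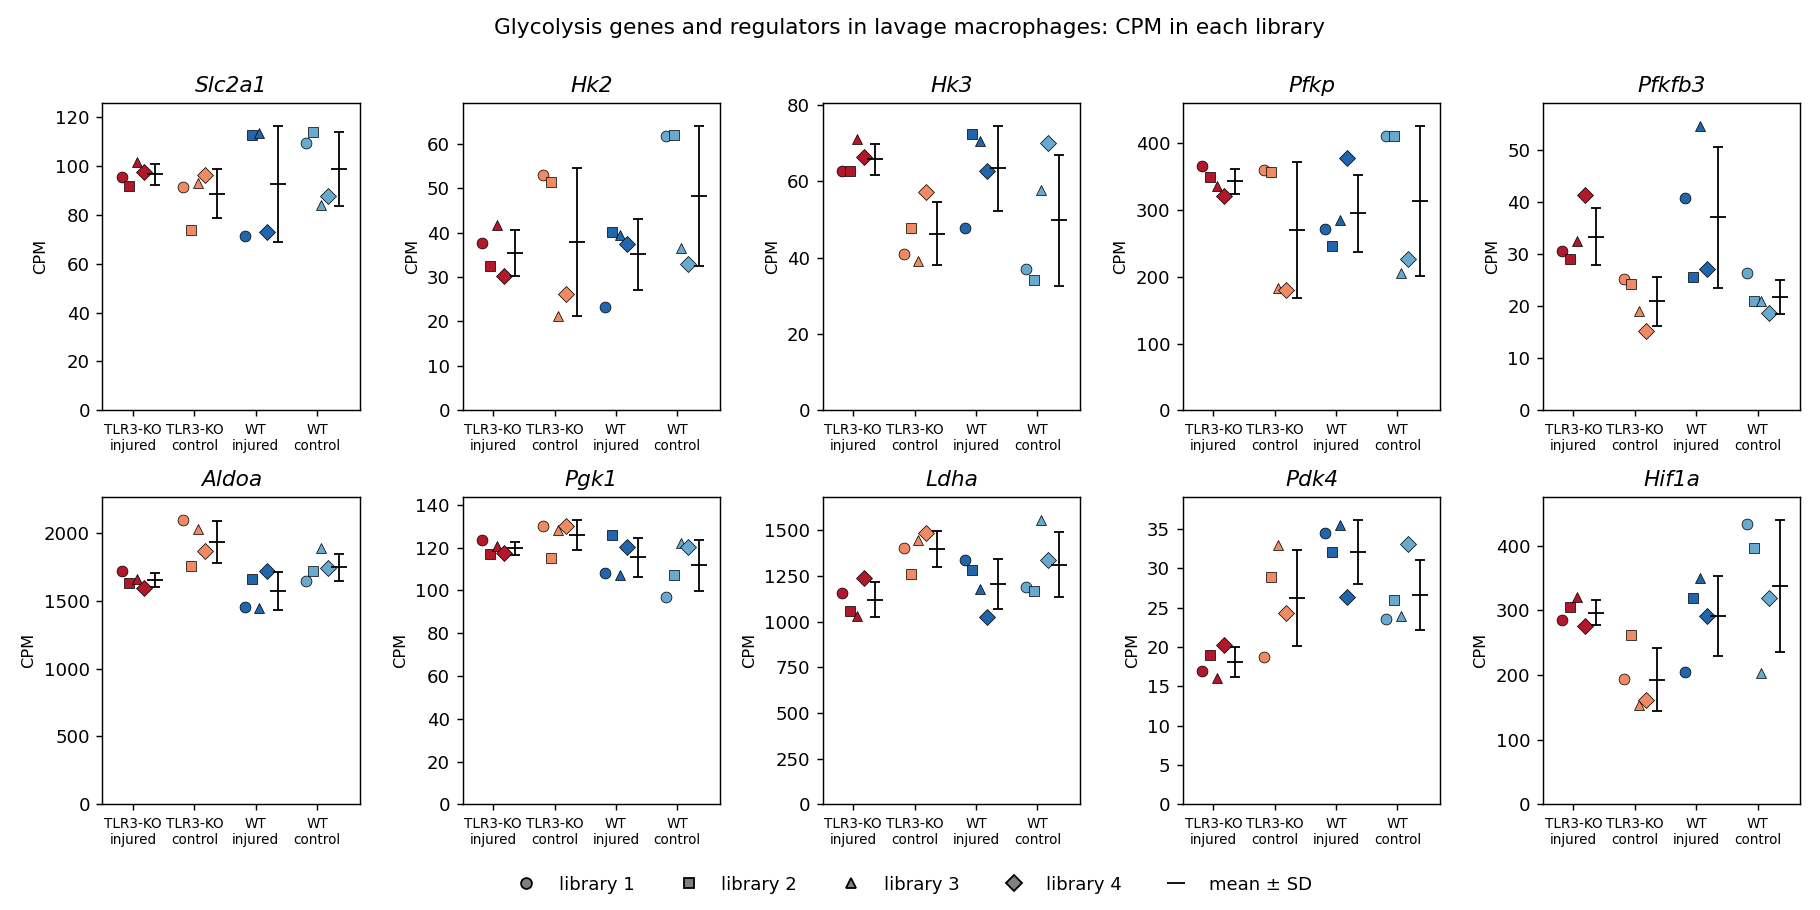
Points give the CPM of each library (marker shape for the library number), and the bar beside each group its mean and SD, for the 10 members in the 4 groups. Pdk4 was lower in all 4 TLR3-KO injured libraries (16.04 to 20.2 CPM) than in all 4 WT injured libraries (26.4 to 35.4 CPM), and Hk2 and Pfkp split controls 1 and 2 from controls 3 and 4.

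Ldha, which turns pyruvate into lactate, had lower values after pneumonia in TLR3-KO without passing the test. Its CPM values were 1156, 1059, 1032 and 1237 for TLR3-KO injured libraries 1 to 4 and 1403, 1261, 1446 and 1487 for TLR3-KO controls 1 to 4. The groups did not overlap, and the gap between 1237 and 1261 CPM was narrow. The log2 fold change was -0.39 (SE 0.11, edgeR adjusted p = 0.0802). It was called without TLR3-KO control 2 (-0.43, adjusted p = 0.0400) and with controls 3 and 4 as the only controls (-0.40, adjusted p = 0.0386). The latter setting was chosen after seeing the data. In WT, Ldha was counted at 1335, 1283, 1177 and 1024 CPM in injured and at 1187, 1169, 1557 and 1336 CPM in control libraries, with overlap (-0.23, SE 0.11, adjusted p = 0.469).

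Aldoa also had lower means after pneumonia in both genotypes, without passing the test. TLR3-KO injured libraries 1 to 4 were at 1716, 1629, 1658 and 1596 CPM and TLR3-KO controls 1 to 4 at 2095, 1754, 2026 and 1863 CPM. The groups did not overlap (log2 fold change -0.30, SE 0.11, edgeR adjusted p = 0.121). In WT the values were 1451, 1659.8, 1446 and 1719 CPM in injured and 1647, 1716, 1885 and 1739 CPM in control libraries, which overlapped (-0.27, SE 0.11, adjusted p = 0.389). The difference between the responses of the genotypes was -0.03 (SE 0.15, adjusted p = 0.910). Aldoa (ENSMUSG00000030695.16) lies on chromosome 7 from 126795234 to 126800751 and Ldha (ENSMUSG00000063229.15) on the same chromosome from 46841475 to 46855627 in mm10.

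Pgk1 varied least of the members. It averaged 119.8 ± 3.05 CPM in TLR3-KO injured and 126 ± 7.11 CPM in TLR3-KO control libraries, and 115 ± 9.04 CPM in WT injured and 112 ± 11.9 CPM in WT control libraries (SD, n = 4 each). All 16 values lay between 97.0 and 130.1 CPM, the lowest being WT control 1. The log2 fold changes of the 4 comparisons between groups lay between -0.14 and 0.10 with an SE of 0.09 each, and none had an adjusted p under 0.34 (edgeR). Pgk1 is a gene of the X chromosome, and TLR3-KO controls 1, 2 and 3, the libraries with Xist, were at 130.04, 115 and 128 CPM beside 130.1 CPM in TLR3-KO control 4.

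Hk3, which traps glucose in the cell as its phosphate, had higher means after pneumonia in both genotypes, without passing the test. TLR3-KO injured libraries 1 to 4 had 62.8, 62.6, 71.0 and 66.4 CPM of Hk3, and TLR3-KO controls 1 to 4 had 41.1, 47.7, 39.1 and 57.2 CPM. The groups did not overlap, and the log2 fold change was 0.45 (SE 0.18, edgeR adjusted p = 0.152). In WT, injured libraries were at 47.9, 72.3, 70.6 and 62.6 CPM and controls at 37.0, 34.2, 57.7 and 70.1 CPM. There controls 3 and 4 lay among the injured libraries and controls 1 and 2 below all of them (0.26, SE 0.18, adjusted p = 0.606). With controls 1 and 2 as the only controls Hk3 was called in WT at 0.65 (adjusted p = 0.0167), and with controls 3 and 4 as the only controls it was at -0.05 (adjusted p = 0.921). Both settings were chosen after seeing the data.

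Hk2 differed more within the controls than between injured and control groups. Its CPM values were 37.6, 32.4, 41.7 and 30.2 for TLR3-KO injured libraries 1 to 4 and 52.9, 51.4, 21.1 and 26.2 for TLR3-KO controls 1 to 4. In WT it was counted at 23.2, 40.2, 39.5 and 37.4 CPM in injured libraries and at 61.8, 61.9, 36.4 and 33.0 CPM in controls 1 to 4. Controls 1 and 2 lay above all injured libraries of their genotype, and controls 3 and 4 lay among or below them. The response to pneumonia was -0.18 in TLR3-KO (log2, SE 0.32, edgeR adjusted p = 0.735) and -0.60 in WT (SE 0.32, adjusted p = 0.518). With controls 1 and 2 as the only controls it was -1.002 in WT (adjusted p = 0.00866), and with controls 3 and 4 as the only controls it was -0.03 in WT (adjusted p = 0.960) and 0.58 in TLR3-KO (adjusted p = 0.0504). This split was chosen after seeing the data, in which Hk2 itself differs between these controls, so the call is not independent of the choice.

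Slc2a1, the carrier that brings glucose into the cell, passed in no comparison. It averaged 96.6 ± 4.21 CPM in TLR3-KO injured and 88.6 ± 10.1 CPM in TLR3-KO control libraries, and 92.6 ± 23.7 CPM in WT injured and 98.7 ± 15.0 CPM in WT control libraries (SD, n = 4 each). The WT injured libraries formed 2 levels, with libraries 1 and 4 at 71.1 and 73.0 CPM and libraries 2 and 3 at 113 and 114 CPM. The log2 fold changes were 0.06 in TLR3-KO and -0.22 in WT after pneumonia (SE 0.17 each, edgeR adjusted p = 0.843 and 0.642).

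At the phosphofructokinase step, Pfkp showed the same split of the controls as Hk2. TLR3-KO injured libraries 1 to 4 had 366, 349, 337 and 321 CPM of Pfkp, and TLR3-KO controls 1 to 4 had 360.1, 357, 183 and 180.0 CPM. In WT it was counted at 272, 246, 285 and 378 CPM in injured libraries and at 411, 411, 206 and 227 CPM in controls 1 to 4. Controls 1 and 2 were near or above the injured libraries, and controls 3 and 4 below all of them. The response was 0.26 in TLR3-KO (log2, SE 0.29, edgeR adjusted p = 0.593) and -0.22 in WT (SE 0.29, adjusted p = 0.808). Its direction in TLR3-KO turned with the controls used: it was called at 0.91 against controls 3 and 4 (adjusted p = 0.00235) and was -0.18 against controls 1 and 2 (adjusted p = 0.552). In WT it was 0.40 against controls 3 and 4 (adjusted p = 0.244) and was called at -0.66 against controls 1 and 2 (adjusted p = 0.0163). These settings were chosen after seeing the data, so the calls of Pfkp are not independent of the choice.

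Pfkfb3, which makes the activator of phosphofructokinase, had higher means after pneumonia in both genotypes, without passing the test. Its CPM values were 30.5, 29.0, 32.5 and 41.2 for TLR3-KO injured libraries 1 to 4 and 25.1, 24.3, 19.1 and 15.2 for TLR3-KO controls 1 to 4, with no overlap. In WT it was counted at 40.7, 25.6, 54.5 and 27.2 CPM in injured and at 26.3, 21.0, 20.9 and 18.6 CPM in control libraries, where WT injured 2 lay just below WT control 1. The response was 0.59 in TLR3-KO (log2, SE 0.24, edgeR adjusted p = 0.161) and 0.64 in WT (SE 0.24, adjusted p = 0.358), and the difference between them was -0.05 (SE 0.34, adjusted p = 0.943). With controls 3 and 4 as the only controls, a setting chosen after seeing the data, it was called in TLR3-KO at 0.94 (adjusted p = 0.0227). The summed CPM of neutrophil markers was also higher in injured libraries, with means of 196 CPM in TLR3-KO injured and 82.5 CPM in TLR3-KO control libraries, and of 193 CPM in WT injured and 75.6 CPM in WT control libraries. Its part in the values of Pfkfb3, Hk3 and Hif1a was not tested.

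Hif1a was lower in TLR3-KO than in WT controls by the widest margin of any member, without passing the test. TLR3-KO controls 1 to 4 had 193, 261, 154 and 162 CPM of Hif1a, and WT controls 1 to 4 had 434, 396, 203 and 320.0 CPM. The groups overlapped, since WT control 3 lay between TLR3-KO controls 1 and 2. At each library number the TLR3-KO control lay below the WT control. The group values were 193 ± 48.9 CPM in TLR3-KO controls and 338 ± 102 CPM in WT controls (SD, n = 4 each), a log2 fold change of -0.89 (SE 0.24, edgeR adjusted p = 0.0744). With the replicate number as a block it was -0.90 (adjusted p = 0.0909), and the number of genes called in this comparison was then 31, against 82 without the block. That block spans all 16 libraries, though the numbers were taken to pair libraries in the controls alone. The fit is thus not a paired test of the controls, and none was run. Hif1a was called without WT control 3 (-1.08, adjusted p = 0.0282) and without TLR3-KO control 2 (-1.08, adjusted p = 0.0321). In a setting chosen after seeing the data, with controls 1 and 2 as the only controls, Hif1a was called as well (-0.97, adjusted p = 0.0327). With TLR3-KO control 4, the TLR3-KO control without Xist, as the only TLR3-KO control it was -1.27 (adjusted p = 0.249), in a fit that takes the spread from the other groups and assumes that this library varies like them.

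After pneumonia the genotypes overlapped in Hif1a (edgeR adjusted p = 0.999). TLR3-KO injured libraries were at 286, 305, 320.2 and 276 CPM and WT injured libraries at 205, 319, 349.6 and 292 CPM. TLR3-KO injured libraries all lay above the TLR3-KO controls (log2 fold change 0.55, SE 0.24, edgeR adjusted p = 0.178), while WT injured libraries overlapped with the WT controls (-0.34, SE 0.24, adjusted p = 0.604). The difference of the responses was 0.89 (SE 0.33, unadjusted p = 0.0166, adjusted p = 0.241) and did not pass. With controls 3 and 4 as the only controls Hif1a was called in TLR3-KO at 0.90 (adjusted p = 0.00600), and with controls 1 and 2 as the only controls it was 0.27 in TLR3-KO (adjusted p = 0.430) and was called in WT at -0.70 (adjusted p = 0.0207). Both settings were chosen after seeing the data, in which Hif1a itself differs between these controls. Hif1a (ENSMUSG00000021109.13) lies on chromosome 12 from 73901375 to 73947530 in mm10.

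**Figure D4:**
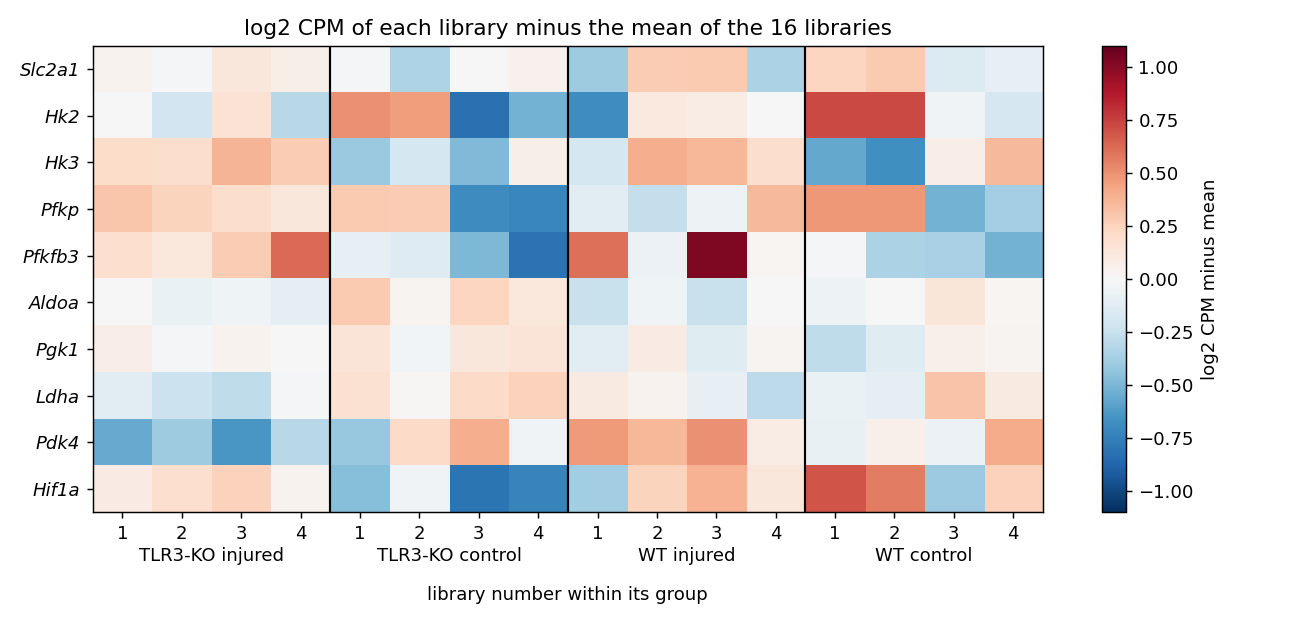
Colours give log2 CPM of each library minus the mean of the 16 libraries, with members in rows and libraries 1 to 4 of each group in columns. Hk2 and Pfkp are higher in controls 1 and 2 than in controls 3 and 4 of the same genotype, and Pdk4 is low in the 4 TLR3-KO injured libraries.

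In Hk2, Pfkp, Hif1a and Pfkfb3, controls 1 and 2 lay above controls 3 and 4 in both genotypes, as they did in Cxcl2, a chemokine gene that inflammatory signals raise in macrophages. TLR3-KO controls 1 to 4 had 279, 158, 65.9 and 62.1 CPM of Cxcl2, and WT controls 1 to 4 had 813, 701, 45.4 and 68.2 CPM. The mean of controls 1 and 2 over that of controls 3 and 4 was 2.21 in TLR3-KO and 1.78 in WT for Hk2, 1.98 and 1.89 for Pfkp, 1.44 and 1.59 for Hif1a, and 1.44 and 1.196 for Pfkfb3, whose WT controls 2 and 3 were nearly equal. Hk3 ran the other way, at 0.921 in TLR3-KO and 0.558 in WT, Pdk4 was at 0.831 and 0.868, and Slc2a1 differed in direction, at 0.873 and 1.30. For Ldha these ratios were 0.908 in TLR3-KO and 0.814 in WT, for Pgk1 0.950 and 0.842, and for Aldoa 0.990 and 0.928. In injured libraries, whose Cxcl2 ranged over 90.1 to 212 CPM in TLR3-KO and 184 to 316 CPM in WT, the same ratios for Hk2, Pfkp, Hif1a and Pfkfb3 lay between 0.781 and 1.09. Whether the handling of the cells or mice differed between these controls was not tested.

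**Figure D5:**
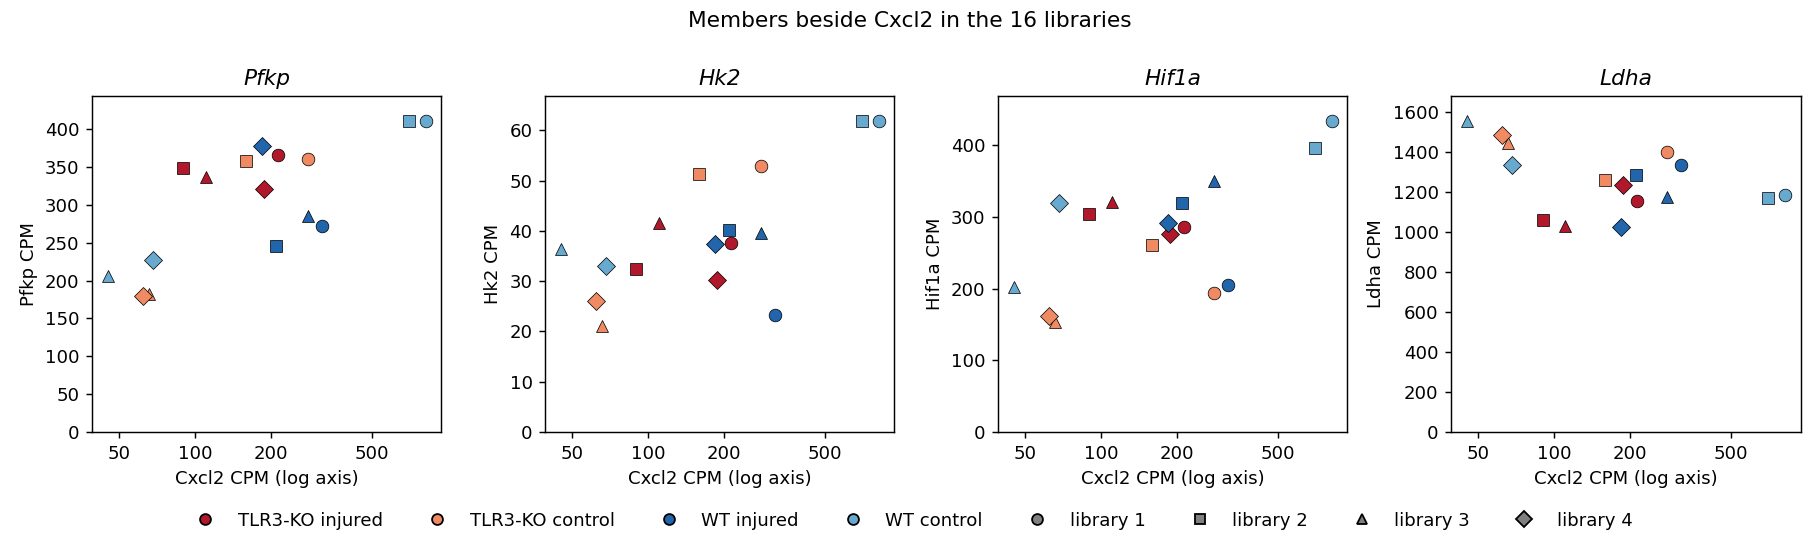
Each point is 1 library, with Cxcl2 in CPM on a log axis and the CPM of Pfkp, Hk2, Hif1a or Ldha on a linear axis from 0. WT controls 1 and 2, at 813 and 701 CPM of Cxcl2, hold the highest Pfkp, Hk2 and Hif1a, and controls 3 and 4 of both genotypes stand at the low end of Cxcl2 with Pfkp at 180.0 to 227 CPM.

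The members differed in how alike they were across the libraries. By the Pearson r of log2 CPM over the 16 libraries, given as a measure of likeness with no test since libraries share groups and scaling, the pairs most alike were Hk2 and Pfkp (0.72), Pfkp and Hif1a (0.67) and Aldoa and Pgk1 (0.65). The least alike were Pfkfb3 and Aldoa (-0.76), Pfkp and Ldha (-0.74) and Ldha and Hif1a (-0.71). Among 8843 genes that averaged at least 5 CPM, those most like Hif1a by this measure were Larp4b (0.98), Clcn5 (0.97) and Acsl4 (0.97), and those most like Pfkfb3 were Cd80 (0.89), Inpp5a (0.88) and Bmi1 (0.86). For Hk3 they were 4933427D14Rik (0.90), 1810074P20Rik (0.89) and Zbed4 (0.89), and for Pdk4 Spopl (0.88), Slc9a4 (0.84) and Tor1aip2 (0.83).

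The rest of the pathway gave few calls. Of 14 other enzymes of glycolysis tested, edgeR called 0 in each comparison. Hk1 had the lowest p in TLR3-KO, at 25.0 ± 2.78 CPM in TLR3-KO injured and 16.4 ± 2.99 CPM in TLR3-KO control libraries (SD, n = 4 each), with a log2 fold change of 0.53 (SE 0.19, edgeR adjusted p = 0.128). Pfkl, the liver-type phosphofructokinase, had the lowest p in WT, at 92.6 ± 23.2 CPM in WT injured and 141 ± 44.7 CPM in WT control libraries (SD, n = 4 each; -0.74, SE 0.24, adjusted p = 0.270). Between TLR3-KO and WT after pneumonia the median log2 fold change of the 14 was 0.15, with 11 higher and 3 lower, where 48.6% of all genes were higher. The controls of the genotypes differed alike, with a median of 0.14, 11 higher and 3 lower, where 54.7% of all genes were higher. After pneumonia the lowest p were those of Aldoc (0.30, SE 0.10, edgeR adjusted p = 0.181) and Tpi1 (0.37, SE 0.13, edgeR adjusted p = 0.216).

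Of 17 other regulators, edgeR called 0 in each comparison. Pdk1 came closest: TLR3-KO injured libraries were at 42.9, 48.9, 49.8 and 45.3 CPM and WT injured libraries at 31.7, 24.1, 19.9 and 34.2 CPM, without overlap (log2 fold change 0.73, SE 0.19, edgeR adjusted p = 0.0952). It was also above the TLR3-KO controls, at 25.4, 40.8, 23.6 and 24.6 CPM (0.64, SE 0.19, adjusted p = 0.0863). The 4 TLR3-KO injured libraries thus held the 4 highest values of Pdk1 and the lowest group mean of Pdk4. Pfkfb4, a sister of Pfkfb3, was at 171 ± 4.05 CPM in TLR3-KO injured and 225 ± 53.0 CPM in TLR3-KO control libraries (SD, n = 4 each; -0.45, SE 0.17, adjusted p = 0.137).

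Of 7 other carriers of glucose and lactate, edgeR called 0 in each comparison. Slc2a6, a glucose carrier of inflammatory macrophages, was at 10.2 ± 3.86 CPM in TLR3-KO controls and 36.5 ± 28.9 CPM in WT controls (SD, n = 4 each; log2 fold change -1.95, SE 0.57, edgeR adjusted p = 0.0992), and its WT controls 1 and 2 were at 62.2 and 60.3 CPM beside 6.89 and 16.7 CPM in WT controls 3 and 4. Slc16a3, a lactate exporter, was at 105 ± 11.0 CPM in TLR3-KO injured and 75.8 ± 8.71 CPM in WT injured libraries (SD, n = 4 each; 0.44, SE 0.16, adjusted p = 0.217).

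In the HIF system, 0 of 7 tested genes beside Hif1a were called in each comparison by edgeR. Arnt, the partner subunit of Hif1a, was at 42.2 ± 7.59 CPM in TLR3-KO controls and 56.8 ± 7.73 CPM in WT controls (SD, n = 4 each; log2 fold change -0.51, SE 0.16, edgeR adjusted p = 0.118), in the direction of Hif1a. Of 15 tested HIF targets outside glycolysis, 1 was called between the injured groups, and 0 in the responses to pneumonia and their difference. P4ha2, a collagen prolyl hydroxylase subunit, was higher in TLR3-KO injured than in WT injured libraries, on few reads. It had 11, 23, 17 and 8 reads against 2, 3, 3 and 3 reads in WT injured libraries 1 to 4 (log2 fold change 2.45, SE 0.52, edgeR adjusted p = 0.0439). TLR3-KO controls 1 to 4 had 9, 7, 14 and 10 reads and WT controls 1 to 4 had 17, 7, 7 and 2 reads. In CPM, the controls of each genotype overlapped with its injured libraries. The fits without 1 library kept the call without WT injured 4 or without TLR3-KO injured 4. Without any other 1 of the 8 libraries it was lost, with adjusted p between 0.0772 and 0.179. The call of P4ha2 was also lost with limma voom (adjusted p = 0.0788), without a filter (adjusted p = 0.0568) and in the fit with the replicate block (adjusted p = 0.0821).

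Pdk4 is also a known target of the PPAR receptors, which drive fatty acid use, and of 13 other tested PPAR targets edgeR called 0 in each comparison. Fabp4, a fatty acid carrier, lay in the direction of Pdk4, at 205, 175, 172 and 299 CPM in TLR3-KO injured libraries and 389, 322, 379 and 652 CPM in TLR3-KO controls 1 to 4, with no overlap (log2 fold change -1.08, SE 0.30, edgeR adjusted p = 0.0714). Cpt1a, the gate of mitochondrial fatty acid oxidation, lay the other way, at 322 ± 43.8 CPM in TLR3-KO injured and 233 ± 50.7 CPM in WT injured libraries (SD, n = 4 each; 0.43, SE 0.15, adjusted p = 0.214). Of the 7 pentose phosphate genes, 0 were called. In WT 6 of the 7 were lower in injured libraries, where 48.7% of all genes were, with a median log2 fold change of -0.27 beside 0.01 over all genes. In TLR3-KO 6 of the 7 were lower as well, where 51.5% of all genes were, with a median of -0.07 beside -0.01. G6pdx, which opens that pathway, was at 308 ± 64.2 CPM in WT injured and 412 ± 53.5 CPM in WT control libraries (SD, n = 4 each). Its log2 fold change was -0.53 (SE 0.15, edgeR adjusted p = 0.227). Of the 12 genes of glycogen and gluconeogenesis 0 were called, and Gys1, the glycogen synthase of most tissues, came closest between TLR3-KO and WT injured libraries, at 23.4 ± 3.78 CPM in TLR3-KO injured and 14.3 ± 1.96 CPM in WT injured (SD, n = 4 each; 0.68, SE 0.16, adjusted p = 0.0650).

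Markers of other cells moved with some of these comparisons. Summed over the 14 neutrophil markers with a row in the table, the level was 196 ± 62.3 CPM in TLR3-KO injured and 82.5 ± 15.3 CPM in TLR3-KO control libraries (SD, n = 4 each; two-sided exact permutation p = 0.0286, the lowest possible with 4 libraries a group; 0.200 adjusted over 28 such tests). It was 193 ± 112 CPM in WT injured and 75.6 ± 18.9 CPM in WT control libraries (SD, n = 4 each; exact p = 0.0857). Among the neutrophil markers, Elane was at 0 in all libraries and Mpo at no more than 0.11 CPM, while S100a8 reached 52.5 CPM and Csf3r 112 CPM. Of the 10 neutrophil markers tested, 9 had a higher level and 1 a lower level in injured libraries, in TLR3-KO and in WT alike. Of these, edgeR called 1 in TLR3-KO, higher in injured, where it called 1.09% of all genes, and 0 in WT, where it called 0%. Between the injured genotypes, where Pdk4 was called, the neutrophil sums were 196 CPM in TLR3-KO injured and 193 CPM in WT injured libraries, and the summed macrophage markers were 33351 ± 1345 CPM in TLR3-KO injured and 30575 ± 2533 CPM in WT injured libraries (SD, n = 4 each). There the 11 lung epithelium markers summed to 172 ± 23.2 CPM in TLR3-KO injured and 103 ± 13.5 CPM in WT injured libraries, and the 8 erythroid markers to 122 ± 60.5 CPM in TLR3-KO injured and 496 ± 160 CPM in WT injured libraries (SD, n = 4 each; exact p = 0.0286 for both, 0.200 adjusted). Between the injured genotypes edgeR called 3 of the 11 lung epithelium markers, higher in TLR3-KO, where it called 0.602% of all genes. Those 11 markers had a median log2 fold change of 1.44, with 8 higher and 3 lower. EdgeR also called 1 of the 10 tested neutrophil markers there, higher in TLR3-KO, while 5 were higher and 5 lower. It called 0 of 7 tested erythroid markers. Monocyte, T cell and B cell markers summed to group means of 7.13 to 16.4 CPM. The part of these cells in the values of the members was not tested. In bulk RNA a lower level from fewer cells of a type and one from less RNA per cell cannot be told apart.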

How the data were processed

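Per the labels' protocols, total RNA of macrophages from lavage fluid was made into TruSeq mRNA libraries, with paired reads of 50 bases. The submitters' processing notes name FastQC 0.11.3, TopHat2 2.0.13, Bowtie2 2.2.1, Cufflinks and Cuffdiff 2.1.1 and the mouse genome mm10. The table deposited by the authors holds whole-number HTSeq counts per gene symbol, without normalization. HTSeq's version, annotation and strand setting are not given in the sources used here, and values of overlapping or antisense genes are therefore uncertain.

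All 16 columns were used, and libraries of a group differed by a chi-square of at least 8.43 per degree of freedom, so no library was a copy. The filter (filterByExpr, minimum count 10, 4 groups) kept 12455 genes and removed 10704. The model was edgeR's robust quasi-likelihood fit (edgeR 4.0.16, R 4.3.3) with TMM scaling (factors 0.896 to 1.07) and a coefficient for each group, with a biological coefficient of variation of 0.238. Benjamini-Hochberg adjustment ran over all genes tested. SEs were obtained as the log2 fold change over the square root of F, without its sign. CPM uses raw library totals, and lengths are unions of exons in the GENCODE annotation of mm10. Summed marker levels were compared with exact permutation tests, two-sided.

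The sample titles number the libraries. Departures from the group mean correlated at the same number by 0.450 to 0.594 between the controls of the genotypes, where the numbers were taken to pair libraries, and by -0.317 to 0.334 in the other comparisons. Alternatives were RLE factors, DESeq2 1.42.0, limma 3.58.1 voom, a stricter and no filter, fits of 2 groups, the replicate block, each library left out and, chosen after seeing the data, a fit without robust variance and fits on part of the controls. The members, lists and rule for named genes were chosen with earlier results of these data known. The text names all 10 members, every called gene of the other lists, except for 1 result that is not reported here, and, where a list had no call, up to 2 genes with the lowest p and a mean of at least 5 CPM. Promoters came from RefSeq (GRCm38.p6), where all 10 members matched. Python 3.11.15 with numpy 2.4.6, pandas 2.3.3, matplotlib 3.10.9 and scipy 1.17.1 made the tables and figures.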

Additional observations from a re-analysis of the deposited data

Results flagged for a closer look

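In 2 of the 40 groups of 4 libraries examined (10 members in 4 groups), 1 library lay far from the other 3, which chance gives in about 1 of 20 groups. Hk2 in WT injured library 1 was at 23.2 CPM, where the other 3 WT injured libraries were at 37.4 to 40.2 CPM, and the gap was 0.837 of the range of the group, above Dixon's 95% critical value. Pgk1 in TLR3-KO control 2 was at 115 CPM, where the other 3 TLR3-KO controls were at 128 to 130.1 CPM, and the gap was 0.873 of the range.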

How the results depend on the processing

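The counts of called genes depended on the setting. For WT after pneumonia, TLR3-KO after pneumonia, TLR3-KO against WT in controls, TLR3-KO against WT after pneumonia and the difference of responses, edgeR called 0, 136, 82, 75 and 0 genes, and DESeq2 called 181, 1031, 781, 444 and 98. RLE factors gave 11 in WT and 147 in controls. Without a filter there were 1 in WT and 44 in TLR3-KO, with at least 5 CPM in 3 libraries 2 in WT and 39 between injured genotypes, and without robust variance 2 in WT. Fits of 2 groups gave 33 in TLR3-KO, 10 in controls and 154 between injured genotypes. The replicate block gave 3 in WT, 11 in TLR3-KO, 31 in controls and 21 between injured genotypes. By correlation, the numbers were taken to pair libraries in the controls alone, where 7 of 8 libraries correlated best with their own number. In TLR3-KO 6 of 8 did so, at correlations of -0.0584 to 0.334, so a pairing there is not settled. In WT and between injured genotypes 0 of 8 did. A paired fit of the controls alone was not run. With controls 1 and 2 as the only controls, 1631 genes were called in WT, 83 in TLR3-KO, 237 in controls and 57 for the difference. With controls 3 and 4 there were 63 in WT, 4108 in TLR3-KO and 20 in controls, and with TLR3-KO control 4 as the only TLR3-KO control, assumed to vary like the other groups, 6 in TLR3-KO and 11 in controls. Leaving out 1 library gave 0 to 10 genes in WT, 0 to 1238 in TLR3-KO, 17 to 466 in controls, 16 to 439 between injured genotypes and 0 for the difference. The 1238 and 466 came without TLR3-KO control 2, and 439 without WT injured 4.

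Members called were 0 in WT, TLR3-KO, controls and the difference and 1 (Pdk4) between injured genotypes. DESeq2 called 3 in TLR3-KO and 1 in controls. Under the replicate block 0 were called between injured genotypes, with Pdk4 at -0.86 (adjusted p = 0.0594). With controls 1 and 2 as the only controls 4 were called in WT (Hk3 higher, Hk2, Pfkp and Hif1a lower) and 1 in controls (Hif1a), and with controls 3 and 4 there were 5 in TLR3-KO (Pfkp, Pfkfb3 and Hif1a higher, Ldha and Pdk4 lower). These settings on part of the controls were chosen after seeing the data. Leaving out 1 library gave 0 in WT, 0 to 2 in TLR3-KO, 0 to 1 in controls, 0 to 1 between injured genotypes and 0 for the difference. The cause of these differences was not tested. With 4 libraries a group, and controls that differ among themselves, a change of the size seen in most members may not be detectable. Comparisons that use the TLR3-KO controls set 3 libraries with Xist and 1 without it against libraries without Xist.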
